A study of Rattus norvegicus with 145 samples.

Results

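The 9 cholesterol synthesis genes described here (Hmgcs1, Mvd, Idi1, Fdps, Fdft1, Sqle, Lss, Cyp51 and Dhcr7) were taken by symbol from the 17337 genes of 5 tables of raw read counts, and each of them had a row in every table. The tables hold liver RNA-Seq of rats in 29 groups of 5, 1 table for experiment A and 4 for experiment B. In experiment A, male Hsd:WI Wistar rats aged 9 to 10 weeks were gavaged daily for 7 days with water (the vehicle control) or with acetamide, a small amide that causes liver tumors in rats at high doses, given at 30, 100, 300 and 1000 mg per kg and day (mkd), and the liver was sampled on day 8. In experiment B, male and female Crl:WI Wistar rats aged 8 to 10 weeks received water or 300, 500, 750, 1000 or 1500 mkd for 7 or 28 days and were sampled on day 8 or day 29. RNA came from the left liver lobe of rats fasted overnight. By title and strain, the vehicle males of day 29 belong to experiment B, although their exposure label names experiment A. Each sample is a separate rat. Between 15449716 and 39986531 reads per rat fell on genes, and the 9 genes had between 41 and 28180 reads in a rat. Levels are given as CPM, a gene's read count divided by a library size that was adjusted for composition with TMM. CPM does not correct for gene length, so levels are compared between rats and not between genes. The 10 hepatocyte markers, albumin among them, held between 13.5 and 29.3% of the reads on genes of every rat.

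Cholesterol is built from acetyl-CoA through the mevalonate pathway, in which small isoprenoid units are joined to squalene, squalene is closed to the first sterol, lanosterol, and lanosterol is trimmed to cholesterol. The liver is a main site of this synthesis. The genes of the pathway are known to be switched on together by the transcription factor SREBP2, which is released from the endoplasmic reticulum when membrane sterol runs low, and they respond to feeding and to the time of day. In the order of the pathway, Hmgcs1 encodes the synthase that makes HMG-CoA in the cytosol, Mvd the decarboxylase that yields isopentenyl diphosphate, Idi1 the isomerase of that unit and Fdps the synthase of farnesyl diphosphate, from which other isoprenoids also branch. Fdft1 encodes squalene synthase, the first step committed to sterols, Sqle squalene epoxidase and Lss lanosterol synthase. Cyp51 encodes the lanosterol demethylase and Dhcr7 the reductase of the last step of one route to cholesterol.

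Promoters from 250 bases before to 50 bases after a start were found in RefSeq (rat build GRCr8) for 7 of the 9 genes, all but Fdft1 and Sqle. The start is the outer end of the gene for 6 of them, and for Hmgcs1, whose gene span begins at 53379457 on chromosome 2, it lies inside that span. They are shown because the genes moved together from rat to rat and because Dhcr7 moved least at the highest dose of experiment A. Of the 4 printed here, Fdps (chr2:176804767-176805066, minus strand) and Idi1 (chr17:66547475-66547774, minus strand) are genes with large differences in that comparison, Hmgcs1 (chr2:53382054-53382353, plus strand) is the earliest step and Dhcr7 (chr1:208444184-208444483, plus strand) is the gene with the smallest difference. Capitals mark matches on either strand to 3 short motifs, written 5′ to 3′ in the direction of transcription. These are CACACGAG, a core of the sterol element known from the Fdps promoter, CCAAT, which binds NF-Y, and GGGCGG, which binds Sp1. A motif on the other strand appears as its reverse complement.
Fdps: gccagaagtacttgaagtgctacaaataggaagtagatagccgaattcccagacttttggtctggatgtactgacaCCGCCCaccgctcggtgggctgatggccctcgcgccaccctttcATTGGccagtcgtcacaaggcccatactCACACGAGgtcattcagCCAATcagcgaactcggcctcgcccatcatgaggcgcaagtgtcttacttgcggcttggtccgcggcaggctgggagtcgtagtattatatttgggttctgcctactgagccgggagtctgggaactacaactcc
Hmgcs1: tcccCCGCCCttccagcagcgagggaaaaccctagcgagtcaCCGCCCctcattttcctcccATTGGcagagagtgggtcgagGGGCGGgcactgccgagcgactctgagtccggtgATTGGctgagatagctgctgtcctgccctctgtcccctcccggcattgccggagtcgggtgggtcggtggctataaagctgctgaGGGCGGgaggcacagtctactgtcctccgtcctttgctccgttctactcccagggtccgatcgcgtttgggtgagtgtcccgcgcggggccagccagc
Idi1: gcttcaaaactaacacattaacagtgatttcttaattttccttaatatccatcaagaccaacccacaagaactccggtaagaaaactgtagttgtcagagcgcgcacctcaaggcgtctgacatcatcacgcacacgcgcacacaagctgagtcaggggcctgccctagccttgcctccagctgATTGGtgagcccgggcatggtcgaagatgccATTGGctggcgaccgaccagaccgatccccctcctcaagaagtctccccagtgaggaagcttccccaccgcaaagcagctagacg
Dhcr7: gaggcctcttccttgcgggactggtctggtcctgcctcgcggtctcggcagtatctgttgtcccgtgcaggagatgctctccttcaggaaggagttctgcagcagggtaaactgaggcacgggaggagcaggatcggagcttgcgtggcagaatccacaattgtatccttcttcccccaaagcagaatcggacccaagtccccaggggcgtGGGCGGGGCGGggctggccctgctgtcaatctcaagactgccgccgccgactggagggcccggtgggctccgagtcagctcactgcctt

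CACACGAG was found in the Fdps promoter, 102 bases before the start. The motif is known from that promoter, so this match was fixed in advance. CACACGAG was in none of the other 6 promoters and in 0.523% of all 33469 rat promoters of this length. In Fdps it lies between 2 CCAAT motifs, 1 on each strand. CCAAT was found in 5 of the 7 promoters (Fdps, Hmgcs1, Idi1, Lss and Mvd) and in 37.5% of all promoters, and GGGCGG in 6 of 7 (all but Idi1) and in 33.1% of all. The Dhcr7 promoter held neither CACACGAG nor CCAAT, and its 2 GGGCGG matches overlap. The Cyp51 promoter likewise held only GGGCGG, yet Cyp51 fell at the highest dose of experiment A, as described below. Mvd, whose promoter held CCAAT, did not pass the test at that dose. Whether these motifs relate to the response was not tested. A match is a description of the letters in this window and not a bound site. RefSeq lists copies of Fdps, Idi1 and Cyp51 that had no rows of their own in the tables, so how reads shared with those copies were counted is uncertain for these 3 genes.

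In experiment A the 9 genes were compared between each dose and the vehicle control, which asks whether acetamide changed sterol synthesis in a range-finding study. At 1000 mkd, 7 of the 9 genes fell, from Hmgcs1 at the start of the pathway to Cyp51, and the 2 that did not pass the test were Mvd and Dhcr7. A gene passed, or was called, when it differed 1.5-fold or more and its p from the quasi-likelihood F-test of edgeR, adjusted over all genes tested by the Benjamini-Hochberg method, did not exceed 0.05. Rose and fell are used for such genes. In this comparison 7.45% of the 11323 genes tested fell. The median log2 fold change was -1.55 over the 9 genes, a 2.94-fold lower level, and 0.00 over all genes tested. All 5 treated rats lay below every control rat for 4 of the genes (Hmgcs1, Idi1, Fdps and Cyp51). The share of all genes with such a separation was not counted. It also depends on TMM, whose factors were 0.856 to 0.976 in the control rats and 1.06 to 1.91 at 1000 mkd. Without TMM the Hmgcs1 groups overlap: treated replicate 4 had 8408 of 26596588 reads on genes, and control replicate 5 had 8175 of 31830845.

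Idi1 had the lowest log2 fold change of the 9. The control rats had 79.0, 40.7, 81.9, 33.9 and 29.3 CPM, and the rats at 1000 mkd had 18.5, 7.66, 22.9, 12.2 and 6.53 CPM. The groups did not overlap, although 2 control rats (replicates 1 and 3) stood well above the other 3. The mean went from 53.0 ± 25.4 to 13.5 ± 7.01 CPM (SD, n = 5), 3.92-fold lower (log2 fold change -1.97, SE 0.41, adjusted p = 0.00141, edgeR). Fdps had 219, 131, 228, 101 and 111 CPM in the control and 68.3, 25.4, 79.6, 40.5 and 28.9 CPM at 1000 mkd, a 3.26-fold lower level (log2 fold change -1.70, SE 0.33, adjusted p = 0.000849). The same 2 control rats were the highest, and treated replicates 2 and 5 were the lowest, as they were for Idi1. Hmgcs1 had 779.7, 334, 886, 341 and 268 CPM in the control and 219, 53.1, 218, 224 and 122 CPM at 1000 mkd, 3.12-fold lower (log2 fold change -1.64, SE 0.37, adjusted p = 0.00229). Treated replicate 2 stood lowest and the groups did not overlap. Mvd, a step between Hmgcs1 and Idi1, had 14.8, 6.32, 11.5, 4.67 and 3.81 CPM in the control and 4.76, 4.11, 4.11, 5.95 and 3.67 CPM at 1000 mkd (log2 fold change -0.86, SE 0.35, adjusted p = 0.066), and the treated rats lay within the range of control replicates 2, 4 and 5, 1 of them just below.

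Among the enzymes that make squalene and close it to lanosterol, all 3 genes fell, and their groups overlapped. Sqle had 108, 51.2, 91.7, 48.8 and 24.8 CPM in the control and 25.1, 21.2, 37.0, 17.0 and 10.3 CPM at 1000 mkd (log2 fold change -1.55, SE 0.37, adjusted p = 0.00356, edgeR), with 3 treated rats below every control rat. Fdft1 had 203, 132, 187, 79.1 and 64.5 CPM in the control and 94.7, 58.7, 83.9, 57.8 and 40.6 CPM at 1000 mkd, where replicates 1 and 3 overlapped the control. Its call was lost in a fit of these 2 groups alone (log2 fold change -0.98, adjusted p = 0.0513). Its mean went from 133 ± 62.0 to 67.1 ± 21.8 CPM (SD, n = 5), 1.98-fold lower (log2 fold change -0.99, SE 0.29, adjusted p = 0.0133), with 3 treated rats below every control. Lss had 21.2, 8.24, 14.9, 9.81 and 4.59 CPM in the control and 6.97, 4.34, 6.39, 5.21 and 5.40 CPM at 1000 mkd, with the treated rats close together at the lower end of the control range. Its mean went from 11.7 ± 6.44 to 5.66 ± 1.03 CPM, 2.07-fold lower (log2 fold change -1.05, SE 0.31, adjusted p = 0.0132), with 1 treated rat below every control. The Lss call rested on a single control rat, replicate 1 at 21.2 CPM: without it the log2 fold change was -0.73 (adjusted p = 0.0635). Without control replicate 4 or 5, Mvd passed as well (log2 fold change -1.01 and -1.05, adjusted p = 0.04 and 0.0278). Mvd also passed with the Wald test of DESeq2 (log2 fold change -0.88, adjusted p = 0.0441).

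Of the 2 genes that act after lanosterol, Cyp51 fell and Dhcr7 did not pass. Cyp51 had 281, 148, 289.9, 188 and 178 CPM in the control and 92.9, 35.5, 133, 69.6 and 30.6 CPM at 1000 mkd, 3.00-fold lower with no overlap (log2 fold change -1.58, SE 0.34, adjusted p = 0.00172, edgeR). Dhcr7 had 81.8, 39.1, 101, 78.5 and 58.1 CPM in the control and 57.6, 53.9, 77.1, 92.6 and 44.2 CPM at 1000 mkd (log2 fold change -0.14, SE 0.26, adjusted p = 0.718). None of the 5 treated rats left the control range of Dhcr7. The difference between the responses of the 2 genes was not tested.

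**Figure D1:**
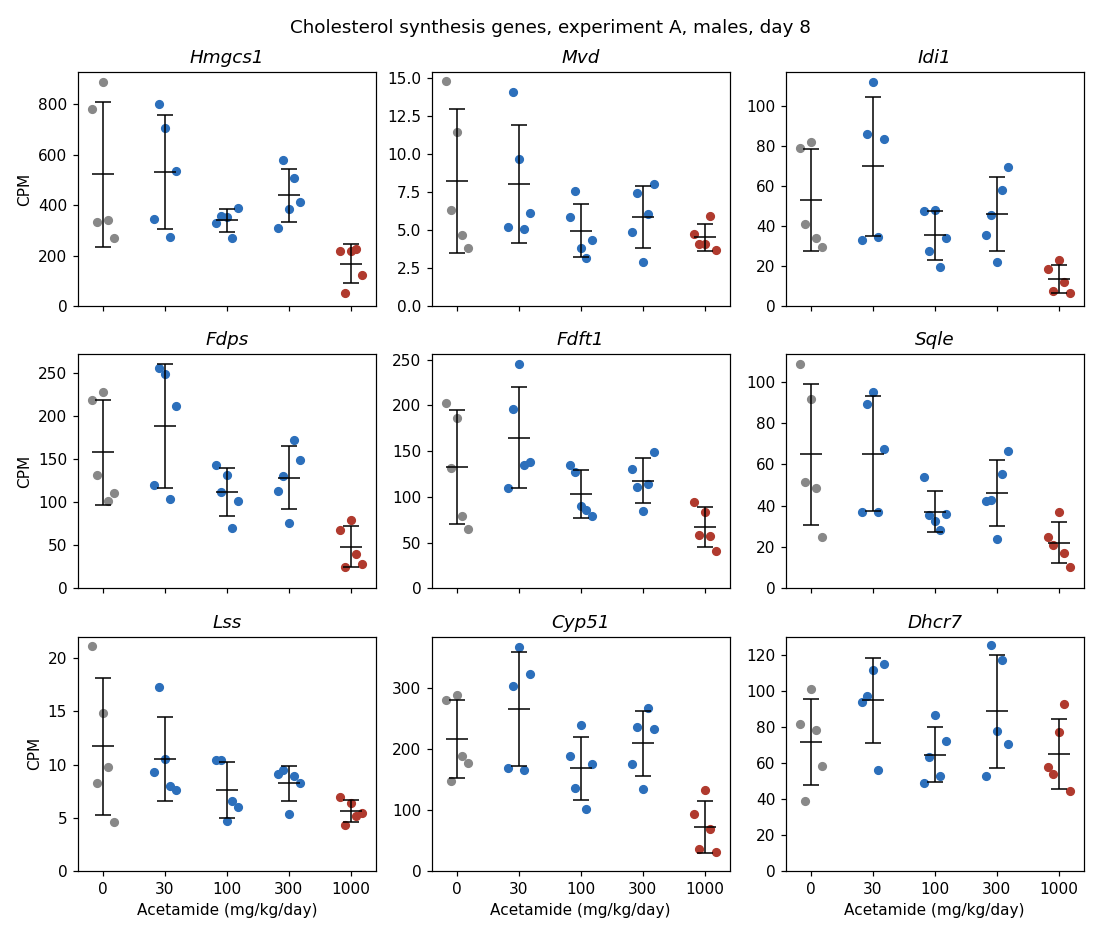
CPM (linear axis from 0) of the 9 genes against acetamide dose in experiment A; each point is 1 rat, the horizontal mark is the group mean and the bars are ± 1 SD (n = 5). At 1000 mkd (red) every rat lies below the control rats (grey) for Hmgcs1, Idi1, Fdps and Cyp51, while Dhcr7 stays within the control range.

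At 30, 100 and 300 mkd of experiment A, 0 of the 9 genes passed the test, as did 0% of all genes at each of these doses (edgeR). The number of the 9 with an unadjusted p under 0.05 was 0, 1 and 0, and over all 11323 genes tested it was 324, 232 and 218. The lower doses showed no stepwise decline. Idi1 had 33.1, 85.9, 112, 34.7 and 83.4 CPM at 30 mkd, 47.4, 27.5, 47.8, 19.6 and 34.0 CPM at 100 mkd and 35.3, 45.2, 22.1, 57.9 and 69.6 CPM at 300 mkd. At 30 mkd 3 rats lay above every control rat, at 100 mkd 2 lay below every control rat and at 300 mkd 1 lay below. The median log2 fold change of the 9 genes was 0.25, -0.59 and -0.25 at these doses. Against dose as a straight line on the log2 scale, the same 7 genes fell, where 22.4% of all genes fell (adjusted p of at most 0.05, no fold change criterion). The slopes ran from -2.06 per 1000 mkd for Idi1 to -0.89 for Lss, and those of Mvd and Dhcr7 were -0.72 (adjusted p = 0.0589) and -0.27 (adjusted p = 0.388). With the Wald test of DESeq2, Mvd had a trend as well (slope -0.74, adjusted p = 0.0402). Without the rats at 1000 mkd 0 of the 9 genes and 1 of all genes passed. The slopes of the 7 genes stayed below 0 there, from -1.62 for Sqle and -1.50 for Lss to -0.55 for Cyp51 (adjusted p = 0.999 for each). These slopes are given per 1000 mkd but were fitted over doses up to 300 mkd and fewer rats. That fit cannot decide whether levels declined with dose below 1000 mkd.

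The other steps of sterol synthesis were taken from a list of 12 genes. At 1000 mkd of experiment A, 7 of them fell and 1 rose, with a median log2 fold change of -0.93. Msmo1, the sterol methyl oxidase, went from 117 ± 88.5 to 34.2 ± 17.1 CPM (log2 fold change -1.77, adjusted p = 0.00584). Tm7sf2 and Ebp, a sterol reductase and the sterol isomerase, had log2 fold changes of -1.35 and -1.03 (adjusted p = 0.00106 and 0.000795, edgeR), and Sc5d, the desaturase before Dhcr7, -1.02 (adjusted p = 0.000587). Nsdhl, Hsd17b7 and Pmvk also fell. Lbr, a nuclear envelope protein with sterol reductase activity, was the gene that rose, from 5.45 ± 0.190 to 8.70 ± 1.72 CPM (log2 fold change 0.68, adjusted p = 0.000857); 14% of all genes rose.

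Genes around the pathway were counted in the same rats. Of 7 genes that sense sterols and process SREBP, 2 fell, Srebf2, which encodes SREBP2 (log2 fold change -0.74, adjusted p = 0.0244), and Insig1, which holds SREBP back (-1.38, adjusted p = 0.0289). Of 6 targets of SREBP2 in sterol uptake and transport, 2 fell, with a median log2 fold change of -0.78 over the 6. Among them Stard4, a sterol carrier, went from 31.6 ± 11.4 to 14.4 ± 6.15 CPM (log2 fold change -1.13, adjusted p = 0.00588). Of 13 genes of sterol disposal and of the sterol receptor LXR, 3 rose: Abcg1, a sterol exporter abundant in macrophages, Soat1, which esterifies cholesterol, and Mylip. Abcg1 went from 6.53 ± 1.46 to 22.1 ± 7.37 CPM (log2 fold change 1.76, adjusted p = 5.66e-05). Of the 4 genes of other isoprenoid branches that were tested, Pdss2 fell (log2 fold change -0.65, adjusted p = 0.00069).

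Fatty acid synthesis runs under the related factor SREBP1. Of 8 genes tested, 5 fell at 1000 mkd of experiment A, with a median log2 fold change of -1.17. Scd1, the stearoyl-CoA desaturase, went from 841 ± 774 to 97.4 ± 105 CPM (log2 fold change -3.11, adjusted p = 0.0012), and Thrsp, Acly, Fasn and Acaca had log2 fold changes of -2.20, -1.29, -1.58 and -1.06 (adjusted p of at most 0.041, edgeR).

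Other lists moved with this dose, and their part in the result was not tested. In whole liver, fewer cells of a type and less RNA per cell cannot be told apart. The summed level of the 10 hepatocyte markers was 246028 to 290262 CPM (scaled by reads on genes alone) in the control rats and 147477 to 261311 CPM at 1000 mkd, 4 of the 10 fell, and their median log2 fold change was -0.68. The 10 macrophage markers summed to 562 to 1526 CPM in the control and 1700.0 to 3765 CPM at 1000 mkd, and 6 rose. T and NK cell markers summed to 24.1 to 28.8 and 45.0 to 115 CPM, with 8 of 9 tested higher. The 8 proliferation genes summed to 18.5 to 66.3 and 85.5 to 273 CPM, and 8 rose. Endothelial markers summed to 51.9 to 134 and 119 to 416 CPM with 3 of 5 higher, and stellate cell markers to 71.9 to 157 and 119 to 369 CPM with 1 of 6 higher. Erythroid markers summed to 152 to 246 and 34.7 to 100 CPM with 2 of 3 tested lower, and Hba1 was at 0. B cell and neutrophil markers summed to 0.714 to 2.51 and 2.36 to 7.73 CPM in the control and 0.780 to 2.58 and 1.14 to 2.94 CPM at 1000 mkd, and cholangiocyte markers to 10.5 to 26.5 and 15.4 to 50.5 CPM. Of the 3 tested neutrophil markers 1 rose and 2 fell, and 0 of the 3 B cell and 4 cholangiocyte markers passed edgeR or had an unadjusted p under 0.05. The same held for the 12 clock genes, with a median log2 fold change of -0.40 and summed levels of 287 to 856 and 363 to 782 CPM. Of 8 fasting genes, 2 fell, with a median log2 fold change of -0.74 over the 8, among them Cpt1a, which admits fatty acids to mitochondria (log2 fold change -0.92).

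In experiment B the 9 genes were compared with the control of the same sex and day up to 1500 mkd, a dose above the highest of experiment A, in rats of another strain label. None of the 9 passed the test at any of the 20 doses and tables of experiment B (edgeR). At 1500 mkd the share of all genes called in either direction was 0.177% and 4.91% in males (day 8 and day 29) and 0.705% and 13.1% in females. The median log2 fold change of the 9 was -0.56, -0.11, -0.44 and -0.15 in that order, beside 0.00, 0.07, 0.00 and 0.00 over all genes tested. DESeq2 also called 0 of the 9 at 1500 mkd in each table, and 6, 0, 2 and 0 had an unadjusted p under 0.05 in edgeR. Over all genes tested, 1429 of 11304, 3050 of 11279, 1688 of 11497 and 3750 of 11451 reached that unadjusted p.

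At the lower doses of experiment B the shares of all genes called were 0% at 300, 500, 750 and 1000 mkd in males day 8 and 0%, 0%, 0.78% and 2.76% in males day 29. They were 0.0087%, 0.0174%, 0.0174% and 1.37% in females day 8 and 0%, 0.0349%, 0.183% and 1.59% in females day 29. Against these, 0 of the 9 were called, and the number with an unadjusted p under 0.05 was 0, 3, 0 and 0 for males of day 8 and 5, 0, 0 and 0 for males of day 29. The same number was 0, 2, 5 and 2 for females of day 8 and 0, 1, 3 and 9 for females of day 29. Over all genes tested, this unadjusted p was reached by 159, 375, 865 and 531 of 11304 in males of day 8. It was reached by 638, 1542, 2582 and 2959 of 11279 in males of day 29. In females it was reached by 295, 741, 1609 and 1553 of 11497 on day 8. On day 29 the females had 400, 1301, 1787 and 2219 of 11451.

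**Figure D2:**
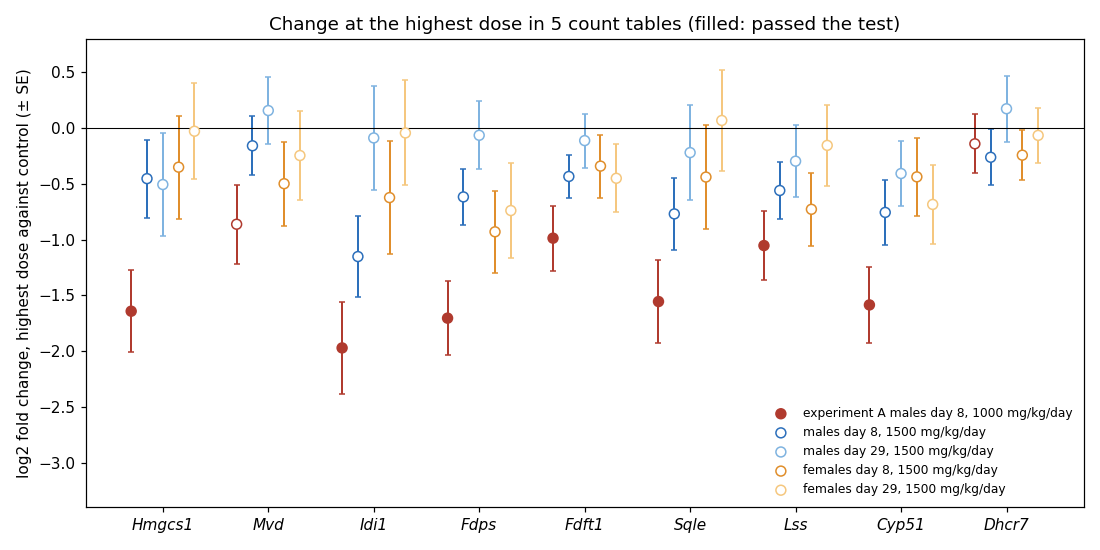
Log2 fold change (± 1 SE) of the 9 genes at the highest dose against the control of the same table, in the order of the pathway; filled symbols passed the test. The 7 filled symbols all belong to experiment A, and the 36 values of experiment B are open.

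Males of day 8 in experiment B showed the lowest values at 1500 mkd for Idi1. The control rats had 20.1, 11.8, 55.4, 21.2 and 23.6 CPM, the rats at 1000 mkd 28.9, 12.0, 26.8, 25.5 and 15.3 CPM and those at 1500 mkd 9.50, 8.89, 22.3, 9.34 and 9.50 CPM. Of the rats at 1500 mkd 4 lay below every control rat, and replicate 3, at 22.3 CPM, lay among them (log2 fold change -1.15, SE 0.36, adjusted p = 0.15, edgeR). At 1000 mkd the rats overlapped the control throughout (log2 fold change -0.29, SE 0.36, adjusted p = 0.972). Fdps, with 65.1, 52.7, 149, 72.0 and 68.6 CPM in the control and 42.8, 44.3, 83.8, 36.8 and 57.8 CPM at 1500 mkd, had 3 treated rats below every control rat (log2 fold change -0.62, SE 0.25, adjusted p = 0.279), and here too control replicate 3 and treated replicate 3 were the highest of their groups. Of the 9 genes, Dhcr7 had a log2 fold change of -0.26 and Mvd of -0.16, the value nearest to 0.

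In males of day 29 at 1500 mkd, replicate 3 stood apart from its group in Mki67, a proliferation gene named after its values were seen, with 243 CPM against 3.07 to 14.1 CPM in the other 4 rats. With or without that rat, 0 of the 9 genes passed at that dose. Cyp51 stood at 99.4, 220.0, 149, 127 and 106 CPM without acetamide, at 200.2, 98.6, 293, 295 and 189 CPM after 300 mkd and at 111, 58.5, 114, 111 and 135 CPM after 1500 mkd. At 300 mkd 2 rats lay above every control rat, and at 1500 mkd 4 of the 5 rats lay within the control range and replicate 2 below it. All 9 genes had log2 fold changes above 0 at 300 mkd, with a median of 0.65, and 0 passed. Over all doses Cyp51 fell with dose (slope per 1000 mkd -0.53, SE 0.19, adjusted p = 0.0389, edgeR), 1 of the 9, where 10.6% of all genes fell. The trend was lost without replicate 2, 3 or 4 of every group (adjusted p = 0.148, 0.0844 and 0.0763), on the scale of log2(dose + 100) and without the highest dose group, where the slope was steeper (-0.61, adjusted p = 0.145). Without replicate 3 Lss had a trend instead (slope -0.68, adjusted p = 0.0237). In males day 8, 0 of the 9 had a trend (2 at an unadjusted p under 0.05, 0 with DESeq2), where 2.52% of all genes had one in either direction. That unadjusted p was reached by 2028 of all 11304 genes.

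Females of day 8 had levels that spread widely in the control and at 300 mkd. Fdps had 557, 158, 292, 286 and 142 CPM in the control, 85.4, 119.7, 137, 119.7 and 110.1 CPM at 750 mkd and 138, 95.7, 78.3, 148 and 294 CPM at 1500 mkd. All 5 rats at 750 mkd lay below every control rat, but the adjusted p was 0.0954 (log2 fold change -1.33, SE 0.37, edgeR). At 1500 mkd replicate 5 stood above the other 4 rats (log2 fold change -0.93, SE 0.37, adjusted p = 0.214), and without it Fdps passed (log2 fold change -1.30, adjusted p = 0.0487), 1 of the 9. The fits that each left out 1 control or treated rat called 1 to 426 of all genes, beside 81 with every rat. Over all doses 0 of the 9 had a trend (2 at an unadjusted p under 0.05, 0 with DESeq2), where 5.44% of all genes had one. That unadjusted p was reached by 2387 of all 11497 genes. Fdps did have a trend with log2(dose + 100) (adjusted p = 0.0256), without the highest dose group (0.0331) and without replicate 5 (0.0292).

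In females of day 29 all 9 genes had log2 fold changes above 0 at 500 mkd and below 0 at 750 and 1000 mkd, none of which passed, and at 1500 mkd a single rat stood far above the others. Fdps had 204, 363, 411, 319.5 and 480.2 CPM in the control, 883, 550.2, 190.4, 426 and 522 CPM at 500 mkd and 137, 109.6, 193, 158 and 98.9 CPM at 1000 mkd. At 500 mkd 3 rats lay above every control rat and 1 below, and at 1000 mkd all 5 lay below (log2 fold change -1.35, SE 0.43, adjusted p = 0.0855, edgeR). At 1500 mkd the rats had 158, 79.4, 81.0, 219.9 and 527 CPM, where replicate 5 was above every control rat and 3 of the others below every control rat. Idi1 had 34.3, 50.3, 64.0, 34.6 and 86.0 CPM in the control, 24.9, 16.0, 25.1, 23.7 and 15.0 CPM at 1000 mkd and 27.2, 25.1, 18.3, 38.1 and 153 CPM at 1500 mkd. Again the rats at 1000 mkd lay below every control rat (log2 fold change -1.36, SE 0.48, adjusted p = 0.115), and replicate 5 at 1500 mkd was far above the other 4. For 3 genes (Idi1, Fdps and Cyp51) all 5 rats at 1000 mkd lay below every control rat, and the share of all genes separated in this way was not counted. Averaged over the 9 genes, log2 CPM was 6.47 ± 0.53 (SD, n = 5) in the control, and 7.05 ± 0.78, 5.49 ± 0.34 and 6.06 ± 0.82 after 500, 1000 and 1500 mkd, and replicate 5 of the 1500 mkd group stood at 7.42.

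Without replicate 5 of the 1500 mkd group in females of day 29, 3 of the 9 passed the test. They were Fdps (log2 fold change -1.40, adjusted p = 0.0107, edgeR), Cyp51 (-1.08, adjusted p = 0.0221) and Fdft1 (-0.82, adjusted p = 0.0358). With that rat, Fdps and Cyp51 stood at -0.74 and -0.68 (adjusted p = 0.234 and 0.175). Counts over all genes moved too. The fits that each left out 1 control or treated rat called 802 to 1982 of all genes, beside 1498 with every rat. Over all doses, Cyp51 (slope per 1000 mkd -0.69, SE 0.24, adjusted p = 0.0308) and Fdps (slope -0.82, SE 0.30, adjusted p = 0.0376) fell with dose, 2 of the 9, where 11.9% of all genes fell. Neither trend held on the log2(dose + 100) scale or without replicate 2, 3 or 4 of every group, that of Fdps was also lost without replicate 1 (adjusted p = 0.0585) and that of Cyp51 did not pass without the highest dose group, where its slope was steeper (-1.09, adjusted p = 0.0517) and Fdft1 passed (-1.04, adjusted p = 0.0393). Without replicate 5, 4 genes had a trend (Mvd, Fdps, Fdft1 and Cyp51). Fdft1 also had a trend with the Wald test of DESeq2 on all rats (slope -0.55, adjusted p = 0.0401). In these females the hepatocyte markers summed to 200273 to 285178 CPM in the control and 135349 to 206168 CPM at 1500 mkd (1 of 10 rose and 2 fell), the macrophage markers to 819 to 1394 and 1306 to 3625 CPM (3 of 10 rose), and their part in these results was not tested.

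**Figure D3:**
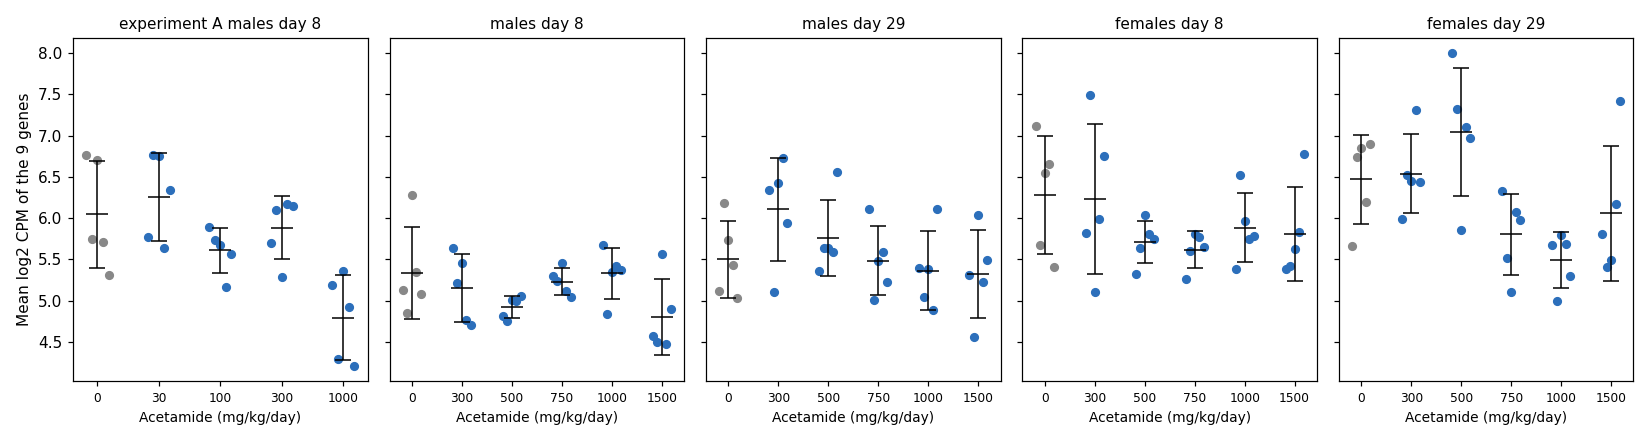
Mean log2 CPM of the 9 genes in each rat against acetamide dose in the 5 count tables (grey, vehicle control; blue, treated); horizontal marks and bars are the group mean ± 1 SD (n = 5). In females day 29 at 1500 mkd replicate 5 stands at 7.42, above the mean of 6.47 ± 0.53 in the control; levels were scaled within each table.

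Genes around the pathway were also compared in experiment B at 1500 mkd. In males of day 29, 1 of the 6 targets of SREBP2 in uptake and transport fell, with a median log2 fold change of -0.35 over the 6, where 1.76% of all genes fell. In females day 29, Ebp, the sterol isomerase, fell from 246 ± 43.3 to 150.1 ± 71.9 CPM (log2 fold change -0.71, adjusted p = 0.04), Srebf1 from 184 ± 72.0 to 86.7 ± 20.8 CPM (log2 fold change -1.09, adjusted p = 0.0344) and Npc1, which moves cholesterol out of lysosomes, from 183 ± 22.0 to 113 ± 33.9 CPM (log2 fold change -0.69, adjusted p = 0.0175). Lbr, Abcg1 and Soat1 rose there, with log2 fold changes of 0.67, 1.13 and 1.25, where 9.55% of all genes rose and 3.54% fell. In those females 4 of 8 fatty acid synthesis genes fell, beside 3.54% of all genes, and Scd1 went from 682 ± 539 to 73.3 ± 47.0 CPM (log2 fold change -3.22, adjusted p = 0.0048). In the other tables of experiment B, 0 of the fatty acid synthesis genes were called by edgeR, with median log2 fold changes of -0.78 and -0.35 for males (day 8 and day 29) and -0.74 for females of day 8, and 4, 1 and 1 of the 8 had an unadjusted p under 0.05. Over all genes tested, 1429, 3050 and 1688 reached that unadjusted p.

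The response was compared between experiments at the dose they share, 1000 mkd at day 8 in males, as an interaction of experiment and treatment in a fit over all rats. The change was more negative in experiment A for all 9 genes, with a median difference of -1.31 on the log2 scale, and it passed the test for 2 of them, where 2.85% of all genes passed in that direction. These were Fdps (log2 difference -1.61, SE 0.51, adjusted p = 0.0344, edgeR) and Cyp51 (log2 difference -1.42, SE 0.48, adjusted p = 0.0496). Hmgcs1 (-1.79, adjusted p = 0.0564) and Idi1 (-1.69, adjusted p = 0.0966) did not pass, and Dhcr7 had a difference of -0.18. With the Wald test of DESeq2, Hmgcs1 passed (-1.79, adjusted p = 0.0425). The calls changed when replicates were left out: 0 of the 9 passed without replicate 1, 2, 4 or 5 of every group and 4 passed without replicate 3. Where the calls were lost, the log2 differences were -1.48 to -1.68 for Fdps and -1.26 to -1.35 for Cyp51. Fewer rats enter those fits, and the cause was not tested. The experiments differ in strain label, age range and count table, and these cannot be told apart.

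The vehicle controls of the 2 experiments were compared as well. On a scale common to all tables, Sqle in the vehicle males of day 8 had 117, 55.0, 99.4, 52.8 and 26.6 CPM in experiment A and 23.6, 14.8, 50.3, 26.1 and 19.2 CPM in experiment B. Control rats of experiment A reached higher, but the groups overlapped (log2 difference 1.39, SE 0.44, adjusted p = 0.0672, edgeR; DESeq2 called this gene). Of the 9 genes 0 passed, 7 had an unadjusted p under 0.05, the log2 difference was above 0 for 8 with a median of 1.03, and 1.61% of all genes were called. That unadjusted p was reached by 2031 of all 11890 genes. At 1000 mkd and day 8, Fdps had 68.3, 25.4, 79.6, 40.5 and 28.9 CPM in experiment A and 94.7, 44.9, 99.7, 69.3 and 71.4 CPM in experiment B, each scaled within its own table.

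The response at 1500 mkd was also compared between sexes and between days. Of the 9 genes, 0 passed the interaction of sex and treatment at day 8 (0% of all genes) and at day 29 (0.597%), and 0 passed that of day and treatment in males (0%) and in females (0.0168%). None of the 9 had an unadjusted p under 0.05 in these 4 tests of edgeR, and DESeq2 called none. The differences ranged from -0.34 to 0.53 on the log2 scale between the sexes at day 8 and from -0.67 to 0.49 at day 29. Between days they spanned -0.08 to 1.04 for males and -0.26 to 0.57 for females. Differences of these sizes could not be told from 0 with 5 rats a group.

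Vehicle females were compared with vehicle males of experiment B, which gives the sex difference of the pathway without treatment. Fdps was higher in females on both days. In the vehicle males of day 8 it had 66.5, 54.3, 152, 74.7 and 70.7 CPM and in the females 509.7, 144, 269.9, 259 and 129 CPM, with 3 females above every male (log2 difference 1.65, SE 0.37, adjusted p = 0.000461, edgeR). On day 29 the males had 66.6, 139, 94.3, 90.8 and 75.5 CPM and the females 202, 349, 392, 305 and 471 CPM, with no overlap (log2 difference 1.88, SE 0.37, adjusted p = 4.12e-05). Females thus had 3.13 and 3.69 times the male level.

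At day 8, 3 of the 9 genes were higher in females (Fdps, Mvd and Dhcr7), beside 3.93% of all genes, and at day 29, 6 were (Fdps, Mvd, Fdft1, Sqle, Cyp51 and Dhcr7), beside 6.69% of all genes. Mvd differed by 1.08 and 1.23 on the log2 scale (adjusted p = 0.0357 and 0.00939) and Dhcr7 by 0.89 and 0.97 (adjusted p = 0.0164 and 0.00604). Sqle and Cyp51 differed by 1.17 and 1.00 at day 29 (adjusted p = 0.0489 and 0.0294). The Sqle call was lost with DESeq2 size factors (adjusted p = 0.0503), no filter on low counts (0.0654) or a replicate block (0.0541) and without any 1 of the 5 replicates (0.0592 to 0.142), and it held with the Wald test of DESeq2. The Cyp51 call was lost without replicate 1, 3, 4 or 5 (adjusted p = 0.0515 to 0.184). The Mvd call was lost at day 8 without replicate 1, 2 or 4 (adjusted p = 0.443, 0.0734 and 0.11, edgeR) and at day 29 without replicate 3 (0.0726). That of Fdft1 at day 29 was lost without replicate 3, 4 or 5 (adjusted p = 0.093, 0.0854 and 0.125, edgeR). Dhcr7 lost its call at day 8 without replicate 1 (adjusted p = 0.224, edgeR) and at day 29 without replicate 5 (0.0954). Hmgcs1 had 178, 617, 556, 584 and 154 CPM in the males and 147, 364, 446, 208 and 452 CPM in the females of day 29, with the groups interleaved (log2 difference -0.37, SE 0.44, adjusted p = 0.605). The sexes were counted in separate tables, so sex and table cannot be told apart, and single replicates changed the counts: without replicate 1 of every group 0 genes passed at day 8 (Fdps at adjusted p = 0.0538), and at day 29 2 passed without replicate 3 or without replicate 5.

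Day 29 and day 8 controls were also compared. None of the 9 passed in males, where 0.00841% of all genes were called, or in females, where 1.1% were (edgeR, with 0 and 1 of the 9 at an unadjusted p under 0.05, and 0 in each with DESeq2). The log2 differences lay between -0.10 and 0.62 for males and between -0.67 and 0.40 for females.

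**Figure D4:**
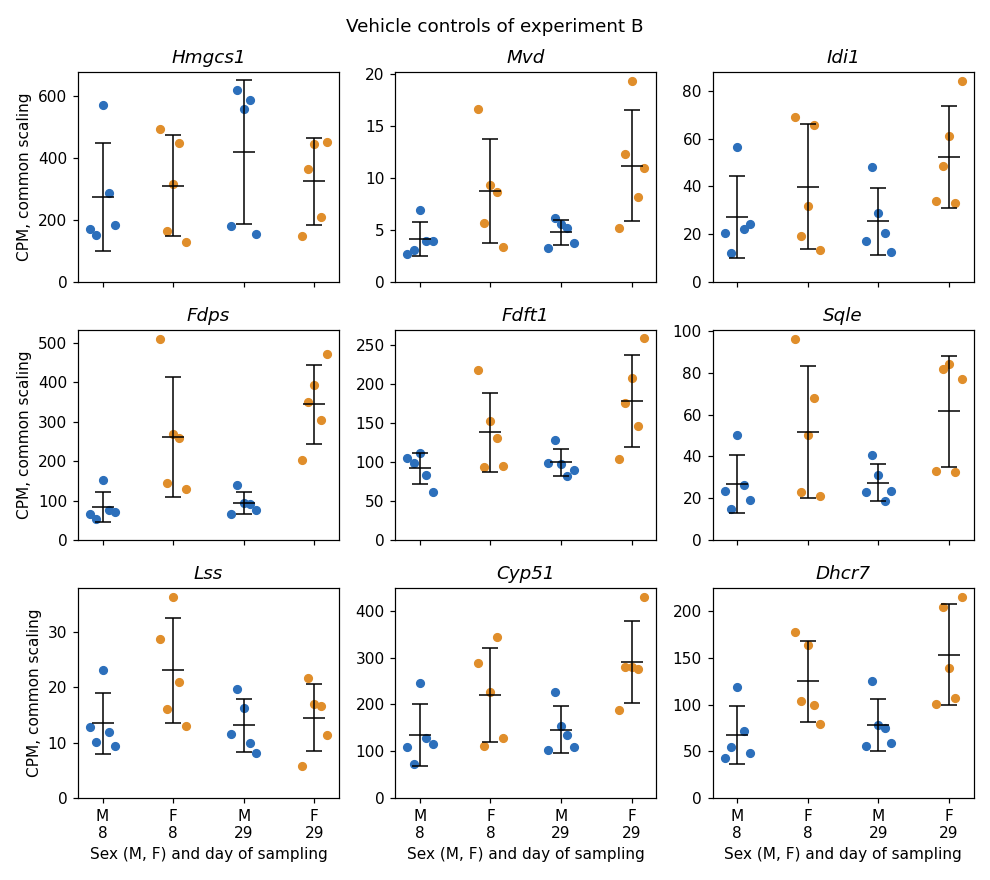
CPM on a common scale (linear axis from 0) of the 9 genes in the vehicle controls of experiment B by sex and day of sampling (blue, males; orange, females; n = 5 rats each); marks and bars are the mean ± 1 SD. For Fdps at day 29 the females lie above the males without overlap, while the sexes interleave for Hmgcs1.

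The 9 genes varied widely between rats of a group, and together. Over the 261 pairs of gene and group, the highest rat had a median of 2.40 times the level of the lowest, and up to 10.4 times for Idi1. The SD within groups was 0.75 for Idi1, 0.72 for Hmgcs1 and 0.69 for Sqle, and 0.43 for Dhcr7 (log2 CPM, 116 degrees of freedom), against a median of 0.32 over the 11890 genes of the fit over all rats. Idi1 varied more than 94.6% of those genes, and Dhcr7 more than 68.3%. Across all rats of the 29 groups, as deviations of log2 CPM from the group mean, the 36 pairs of members had a median Pearson r of 0.72, from 0.50 for Fdft1 with Dhcr7 to 0.91 for Idi1 with Sqle. These correlations are descriptions over rats that share libraries, depth and groups.

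**Figure D5:**
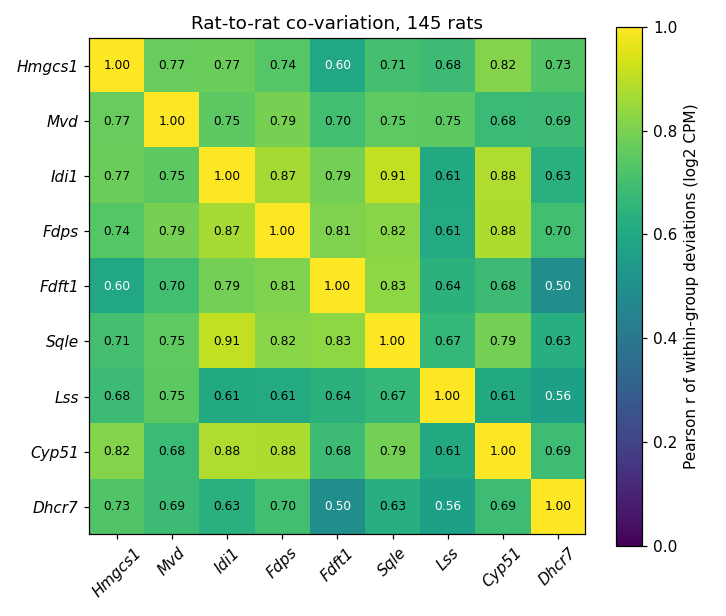
Pearson r between the 9 genes, computed over all rats of the 29 groups from log2 CPM after subtracting each rat's group mean (colour scale from 0 to 1). The highest value off the diagonal is 0.91 for Idi1 and Sqle, and the lowest is 0.50 for Fdft1 and Dhcr7.

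Genes were then ranked by how closely their deviations followed the mean deviation of the 9, among the 11057 other genes tested in all 5 tables. Among the 10 nearest were Msmo1 (r = 0.91), Acat2 (0.81), Nsdhl (0.78), Srebf2 (0.78), Acss2 (0.76), Aacs (0.75), Tmem97 (0.74), Hsd17b7 (0.69) and RGD1310769 (0.69), over all rats. Msmo1, Acat2, Nsdhl and Hsd17b7 are listed steps of sterol synthesis, and Acss2 and Tmem97 stand on the list of SREBP2 targets.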

How the data were processed

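RNA-Seq libraries of rat liver were made with a stranded mRNA kit, and the authors trimmed reads with Trimmomatic, aligned them with Bowtie2 to the Rn6 genome and counted them per gene with HTSeq. The files deposited by the authors hold these raw counts, 1 table for experiment A and 4 for experiment B, with no normalization. Versions and the strand setting of the counting are not given in the sources used here. Bowtie2 does not split reads at introns, which can lower counts of genes with short exons. Lines for reads on no gene (35.5 to 67.1% of reads in experiment B) were left out, and 0 columns of rats went unused.

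Each table was fitted with all its groups in edgeR 4.0.16 (R 4.3.3, TMM, filterByExpr, quasi-likelihood F-test, Benjamini-Hochberg adjustment over 11279 to 11497 genes), and a fit of all tables together (11890 genes) gave the interactions and vehicle comparisons. Comparisons across tables also compare tables. Dose groups of a table share the control rats. The 9 genes and all lists were chosen with earlier results of these data known. All 9 were named, with up to 4 called genes of each list by smallest adjusted p and the 10 genes of highest likeness, except that some genes are not reported here, and further called genes were named outside this rule. Code was tested on simulated data. Alternatives were DESeq2 1.42.0, other size factors, no count filter, control and tested dose only, the dose scale, a replicate block and leaving out rats.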

Additional observations from a re-analysis of the deposited data

Results flagged for a closer look

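Within each group of 5 rats, the highest or lowest rat was compared with the others by Dixon's ratio on log2 CPM for each of the 9 genes. Of 261 pairs of gene and group, 14 held a rat beyond the limit, and chance alone puts about 1 in 20 such pairs there. The 9 genes varied together within groups, so these pairs are not independent. In females of day 29 at 1500 mkd, replicate 5 was the highest for Mvd (21.4 CPM) and Sqle (177 CPM), and at 1000 mkd replicate 2 was the lowest for Hmgcs1 (92.9 CPM). In females of day 8 at 1500 mkd, replicate 5 was the highest for Dhcr7 (160.0 CPM). Among males of day 29, replicate 5 at 1000 mkd was the highest for Fdps (169 CPM) and Fdft1 (157 CPM). Mvd stood out in replicate 5 at 500 mkd (11.0 CPM) and replicate 3 at 1500 mkd (10.2 CPM), both the highest of their groups, and replicate 2 at 1500 mkd was the lowest for Cyp51 (58.5 CPM). Among males of day 8 in experiment B, replicate 3 was the highest for Idi1 at 1500 mkd (22.3 CPM) and for Dhcr7 at 750 mkd (93.2 CPM), and replicate 1 was the lowest for Lss at 750 mkd (9.68 CPM). In experiment A, replicate 3 at 300 mkd was the lowest for Lss (5.38 CPM) and replicate 4 at 30 mkd the lowest for Dhcr7 (56.3 CPM).

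The change at 1000 mkd and day 8 differed between experiment A and experiment B for Fdps (-1.61 on the log2 scale, adjusted p = 0.0344) and Cyp51 (-1.42, adjusted p = 0.0496), by the interaction test of edgeR.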

How the results depend on the processing

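Of 220 alternatives for the 20 counts of the 9 genes, 192 stayed within 1.5 times the reported count and 28 did not. Of 1980 values of single genes, 1899 kept their side of the threshold, 57 lost the call and 24 gained it. Among values called in either fit, 0 reversed direction. Changes of direction among values called in neither fit were not counted. At the highest dose of experiment A the count of 7 lay between 6 and 8 over all alternatives, and at 1500 mkd it was 0 for males of both days throughout. Without the highest dose group, a setting chosen after seeing the data, 7 genes of experiment A and 1 of males of day 29 (Cyp51) lost the call of a trend, leaving 0 in each, and females of day 8 went from 0 to 1 (Fdps). The slopes of Sqle and Lss in experiment A and of Cyp51 in males of day 29 were steeper than with that group. None of these slopes passed, and fewer rats and a narrower dose range enter such fits, so they cannot decide whether a trend remained. With log2(dose + 100), the trend count was 0 for males of day 29, 1 for females of day 8 and 0 for females of day 29. The interaction of experiment and treatment held for 1 gene in place of 2 with DESeq2 size factors or with no filter on low counts. With the Wald test of DESeq2, Hmgcs1 passed that interaction as well. The same test added Mvd at the highest dose and in the trend of experiment A, and Fdft1 in the trend of females of day 29. DESeq2 called 1 gene in place of 0 between the vehicle controls of the 2 experiments. Leaving out 1 replicate gave 0 to 1 and 0 to 3 genes at 1500 mkd (females of day 8 and of day 29), 6 to 8 for the trend of experiment A and 0 to 1, 0 to 1 and 0 to 4 for the trends of males of day 29, females of day 8 and females of day 29. It gave 0 to 4 for the interaction of experiment and treatment, and 0 to 3 and 2 to 6 between vehicle females and males at day 8 and day 29. The cause of these changes was not tested, although fewer rats enter each such fit.

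With a replicate block the counts were 7 for the highest dose and 7 for the trend of experiment A, 1 and 3 for the trends of males and females of day 29, 2 for the interaction of experiment and treatment, and 3 and 5 between vehicle females and males at day 8 and day 29, and 0 otherwise. Same-numbered control and highest-dose rats deviated with correlations of -0.31 to 0.39, over 0.1 in 2 to 4 of 5 pairs per table, so the numbers were not taken as pairing.

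Over all genes, counts moved more than 1.5 times in these comparisons. For males day 8, 1500 mkd, the count was 20, and 2 to 178 over the alternatives. For males day 29, 1500 mkd, the count was 554, and 210 to 733 over the alternatives. For females day 8, 1500 mkd, the count was 81, and 1 to 426 over the alternatives. For females day 29, 1500 mkd, the count was 1498, and 488 to 1982 over the alternatives. For trend, experiment A males day 8, the count was 5195, and 1 to 5630 over the alternatives. For trend, males day 8, the count was 285, and 1 to 525 over the alternatives. For trend, males day 29, the count was 2765, and 1357 to 2972 over the alternatives. For trend, females day 8, the count was 626, and 11 to 875 over the alternatives. For trend, females day 29, the count was 3127, and 1040 to 3474 over the alternatives. For interaction, sex by treatment at day 8, the count was 0, and 0 to 1 over the alternatives. For interaction, sex by treatment at day 29, the count was 71, and 1 to 161 over the alternatives. For interaction, day by treatment in males, the count was 0, and 0 to 3 over the alternatives. For interaction, day by treatment in females, the count was 2, and 0 to 4 over the alternatives. For interaction, experiment by treatment in males day 8 at 1000 mkd, the count was 933, and 27 to 1214 over the alternatives. For vehicle controls, day 29 against day 8 in males, the count was 1, and 0 to 5 over the alternatives. For vehicle controls, day 29 against day 8 in females, the count was 131, and 11 to 223 over the alternatives. For vehicle controls, experiment A against experiment B in males day 8, the count was 192, and 53 to 235 over the alternatives.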
